A study of Macaca fuscata with 18 samples.

Results

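The comparison described here is ischemia against sham surgery in the A2 libraries, 6 of the 18 RNA sequencing libraries of the series. Members were taken by label: each library whose title starts with A2 was included, with its stated treatment, and no measured value was used to choose them. The animals were Japanese macaques (Macaca fuscata), and the tissue was the anterior subventricular zone (SVZa) along the right lateral ventricle, on its striatal side. In the ischemic animals (MK503, MK506 and MK507) global brain ischemia was made by clipping arteries for 18 min, and the sham animals (MK501, MK504 and MK508) had surgery without clipping. Tissue was taken a week after surgery. Each animal gave 3 adjacent tissue fragments, sequenced separately, so the A2 comparison has 1 library from each of 3 sham and 3 ischemic monkeys. The MK number is read here as the monkey and the A number as the fragment, and the labels do not say where in the zone each fragment lay. The study used a paired test, and the numbering of its animals pairs MK504 with MK503 (pair 1), MK501 with MK507 (pair 2) and MK508 with MK506 (pair 3). That pairing was kept as a block in the main test.

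The subventricular zone lines the lateral ventricle and keeps neural stem cells in the adult brain. Ependymal cells with motile cilia cover its surface, astrocytes and stem cells lie beneath, and neurons of the striatum and myelinated fibre bundles border it. Choroid plexus, which makes cerebrospinal fluid, hangs in the same ventricle. A dissected fragment therefore holds several tissues, and in bulk RNA fewer cells of a type and less RNA per cell cannot be told apart.

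Sham totals ran from 22883686 to 57461603 counts (median 31480683), and ischemia totals from 21084076 to 74551396 (median 61526423). No library was a copy of another: within a group their counts gave a chi-square of at least 158 per degree of freedom. The sham library of MK501 stood apart: transthyretin (TTR), the main product of choroid plexus, took 4.25% of its counts, and the 12 choroid plexus genes summed to 73222 CPM there against 101 to 338 CPM in the other 5 libraries. CPM means counts per 1000000 counts of the tested genes in that library, after scaling by the trimmed mean of M values (TMM). Both libraries of pair 1 also stood apart: POLE2 took 5.55% (MK504) and 5.59% (MK503) of counts and MALAT1, a nuclear noncoding RNA, 1.09% and 1.25%, while in the other 4 libraries POLE2 was at or under 0.0002% and MALAT1 at or under 0.118%. Differences between pairs held 69.8% of the variance of log2 CPM and the condition 9.77%. Because each comparison was made within pairs, the features of pair 1 were shared by its sham and its ischemia library, whereas the choroid plexus signal of MK501 was not shared by MK507.

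Of 16537 genes tested in edgeR with the pair as a block, 0 were higher and 0 were lower at an adjusted p under 0.05, and the smallest adjusted p was 0.891. At an unadjusted p below 0.05, 561 genes (3.39%) were higher and 335 (2.03%) were lower after ischemia, together 5.42% of the genes tested. DESeq2 with the same block called 83 genes higher (0.502%) and 9 lower (0.0544%), and 707 and 418 at an unadjusted p. Without the pair block edgeR called 0 genes, with 119 higher and 55 lower at an unadjusted p. None of the differences that follow passed the test over all genes in edgeR, and some went opposite ways in different pairs, so an unadjusted p is given as a description of each. Over all genes the median log2 fold change was -0.01, and 13.7% of genes were higher and 13.9% lower in all 3 pairs. Values of the 2 groups did not overlap for 2.39% of genes on the higher side and 1.45% on the lower side.

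The counts at an unadjusted p leaned on single pairs. With the pair as a block, an animal whose partner is left out adds nothing to the fitted difference. A fit without MK501 thus rests on the other pairs, as does one without MK507, its partner. Unless said otherwise, each fit without an animal is of this kind. The counts were 1539 higher (9%) and 1572 lower (9.2%) of 17093 genes tested without MK501, and 1579 and 1321 without MK507. Without MK506 they were 186 and 35, and without MK508 183 and 29. With MK501 left out and no pair block they were 64 and 29. In each of these fits edgeR called 0 genes. Of the 335 genes lower at an unadjusted p, 87.2% had their highest value in MK501, against 28.4% of all genes, and 86.3% had their lowest value in MK503, against 26.8%. Of the 561 higher genes, 63.1% were highest in MK503 (all genes 21.3%) and 69.5% lowest in MK501 (all genes 26.8%).

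Genes of mature oligodendrocytes, the cells that wrap axons in myelin, had the highest median difference of the 37 gene lists examined. All 20 genes of this list had higher values after ischemia in all 3 pairs (all genes 13.7%). All 20 had an unadjusted p below 0.05 in edgeR (all genes 3.39% on the higher side). The median log2 fold change was 1.73, and within pairs 1, 2 and 3 it was 2.43, 1.95 and 0.78. DESeq2 called 12 of the 20 at an adjusted p under 0.05 (all genes 0.502% on the higher side). The groups did not overlap for 10 of 20 (all genes 2.39% on the higher side). The summed level of the list was 2176 (MK504), 3855 (MK501) and 15317 CPM (MK508) in sham and 13468 (MK503), 16868 (MK507) and 21669 CPM (MK506) after ischemia. The sham animal MK508 therefore lay above the ischemic animal MK503, and the separation was carried by the low levels of MK504 and MK501. Without MK503 or MK504, 13 and 12 of the 20 had an unadjusted p below 0.05, where 615 and 593 of all genes were higher at that p. Without the pair block 6 of 20 genes had an unadjusted p below 0.05, where 0.72% of all genes did on the higher side.

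**Figure D1:**
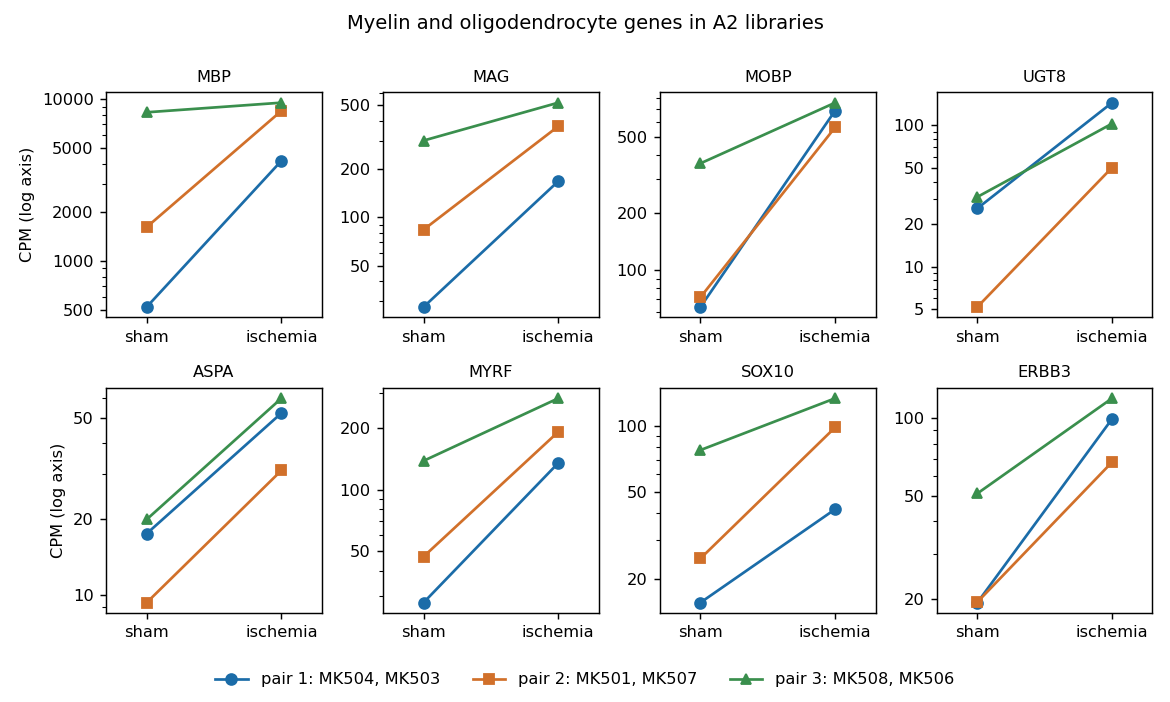
CPM (log axis) of 8 genes of the oligodendrocyte lineage in the 6 A2 libraries, with the sham and the ischemia library of each pair joined by a line. All 24 lines go up from sham to ischemia, and MK508 had the highest sham value in each panel.

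Structural proteins of the sheath were followed first. Myelin basic protein (MBP), which compacts the sheath, was at 519, 1618 and 8298 CPM in the sham animals MK504, MK501 and MK508 and at 4159, 8469 and 9515 CPM in their partners MK503, MK507 and MK506. Its groups overlapped because MK508 was nearly as high as its partner, and the log2 fold change was 1.90 ± 0.72 (SE; unadjusted p = 0.0481 in edgeR, adjusted p = 0.0961 in DESeq2). MOBP, another protein of the compact sheath, was at 63.8, 71.8 and 363 CPM in sham and 688, 562 and 757 CPM after ischemia, with no overlap and a log2 fold change of 2.51 ± 0.59. MAG, the adhesion molecule between sheath and axon, was at 27.6, 83.8 and 302 CPM in sham and 168, 370 and 520 CPM after ischemia, so its groups overlapped.

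Some enzymes and markers of the oligodendrocyte separated the groups and others did not. ASPA, which splits N-acetylaspartate to supply acetate for lipid synthesis, was at 17.5, 9.34 and 19.9 CPM in sham and 52.3, 31.1 and 59.9 CPM after ischemia. No ischemic animal was under 31 CPM and no sham animal over 20 CPM, and the pair differences were 1.58, 1.73 and 1.58 on the log2 scale. The fitted log2 fold change was 1.63 ± 0.21 (SE; unadjusted p = 0.000648 in edgeR, adjusted p = 0.000819 in DESeq2). UGT8, which makes the galactolipids of myelin, was at 25.9, 5.19 and 31.2 CPM in sham and 145, 50.4 and 103 CPM after ischemia, with no overlap and a log2 fold change of 2.49 ± 0.37 (SE; unadjusted p = 0.00149 in edgeR, adjusted p = 4.9e-05 in DESeq2). ENPP6, a marker of oligodendrocytes that have newly begun to differentiate, was at 3.92, 3.06 and 5.25 CPM in sham and 31.9, 7.68 and 14.2 CPM after ischemia, and its groups did not overlap either. The enzymes CNP (log2 fold change 1.43) and GALC (0.85) of the same list overlapped between the groups.

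Transcription factors of the lineage had higher values as well. MYRF, which drives myelin genes, was at 27.9, 46.9 and 139 CPM in sham and 135, 192 and 281 CPM after ischemia (log2 fold change 1.78 ± 0.35). SOX10 was at 15.6, 24.8 and 77.5 CPM in sham and 41.6, 98.4 and 133 CPM after ischemia (1.39 ± 0.31). Both overlapped between the groups through MK508 and MK503. In the separate list of oligodendrocyte precursor genes, 13 of 14 had a higher value, and the list median was 0.40. Higher values in all 3 pairs were seen for 8 (all genes 13.7%). An unadjusted p below 0.05 was reached by 4 (all genes 3.39% on the higher side). The 4 held the transcription factors OLIG1 (1.17 ± 0.31), OLIG2 (1.00 ± 0.27) and NKX2-2 (1.25 ± 0.33), and the groups overlapped for each of these. Another member had the highest log2 fold change of the list, 2.19. The groups did not overlap for 1 of 14 (all genes 2.39% on the higher side). The receptor PDGFRA, which defines the precursors, was at 176, 48.8 and 52.6 CPM in sham and 179, 79.3 and 74.0 CPM after ischemia (0.41 ± 0.25, unadjusted p = 0.162 in edgeR).

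Of the 15 higher genes with the smallest p, ASPA and UGT8 belong to the myelin list. ERBB3, a neuregulin receptor, was at 19.4, 19.5 and 51.3 CPM in sham and 99.6, 67.8 and 120 CPM after ischemia. CARNS1, the carnosine synthase, was at 6.04, 26.8 and 58.7 CPM in sham and 39.1, 59.99 and 115 CPM after ischemia (1.58 ± 0.42, unadjusted p = 0.0147 in edgeR). CNDP1, which breaks carnosine down, was at 11.1, 7.74 and 18.4 CPM in sham and 39.3, 48.8 and 40.4 CPM after ischemia, with no overlap (1.87 ± 0.37, unadjusted p = 0.00472). These were the 2 of 5 genes of carnosine metabolism that had an unadjusted p below 0.05 (all genes 3.39% on the higher side). In A1 CARNS1 and CNDP1 had log2 fold changes of 2.66 and 2.80, and in A3 of -0.84 and -0.19.

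The 15 higher genes with the smallest p had log2 fold changes of 1.34 to 4.22. The direction in all 3 pairs was part of the rule that named them. Their groups did not overlap for 10 of 15 (all genes 2.39% on the higher side), and DESeq2 called all 15 (all genes 0.502%). In the other fragments of the same animals, 15 of 15 had a log2 fold change above 0 in A1 and 4 of 15 in A3. Of the 83 genes that DESeq2 called higher in A2, 81 were above 0 in A1 and 20 in A3. REEP3, a protein of the endoplasmic reticulum, had the smallest p (0.00054 in edgeR): it was at 32.4, 7.94 and 15.02 CPM in sham and 116, 23.2 and 49.4 CPM after ischemia, with pair differences of 1.83, 1.54 and 1.71 on the log2 scale. Its groups overlapped although its pairs were nearly equal, since both animals of pair 1 were high. UNC5B, a netrin receptor, was at 5.88, 2.75 and 13.4 CPM in sham and 27.5, 23.5 and 57.0 CPM after ischemia (2.46 ± 0.32), with no overlap. CYP7B1, an oxysterol hydroxylase, was at 41.5, 0.779 and 4.15 CPM in sham and 141, 5.77 and 18.5 CPM after ischemia (2.22 ± 0.30), but without MK503 and without the pair block the value was -0.35.

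The transcription factor ZEB2 was at 108, 33.0 and 73.4 CPM in sham and 329, 116 and 206 CPM after ischemia, with no overlap (1.63 ± 0.24). NES, an intermediate filament protein of progenitors, endothelial cells and reactive astrocytes, was at 9.02, 21.5 and 15.1 CPM in sham and 25.7, 58.8 and 86.2 CPM after ischemia, with no overlap (1.83 ± 0.31). HHIP, which binds hedgehog ligands, had a log2 fold change of 1.46 ± 0.25 and overlapped between the groups. The noncoding LOC401052 had 2, 4 and 6 reads in MK504, MK501 and MK508 and 20, 202 and 174 reads in MK503, MK507 and MK506, so its fitted log2 fold change of 4.22 rests on few sham reads. The others were DOCK5, TCP11L2, SLAIN1, TMC7 and FOLH1B, at 1.34 to 2.01.

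On the lower side, all of the 15 genes with the smallest p had their highest value in MK501, the sham library with choroid plexus (all genes 28.4%). DESeq2 called 7 of the 15 (all genes 0.0544% on the lower side). IGFBP6, a binding protein of insulin-like growth factor 2, was at 14.4, 98.9 and 31.0 CPM in sham and 5.82, 35.6 and 11.4 CPM after ischemia (log2 fold change -1.41 ± 0.21, unadjusted p = 0.00121 in edgeR, adjusted p = 0.00848 in DESeq2). Its groups overlapped, and without MK501, and so without pair 2, the log2 fold change was -1.42. SMOC2, a matrix protein, was at 52.2, 101 and 55.6 CPM in sham and 17.2, 39.5 and 32.8 CPM after ischemia, with no overlap (-1.23 ± 0.26).

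Some of the lower genes had few reads. GATA6, a transcription factor of vessels and meninges among other tissues, had 6, 86 and 66 reads in MK504, MK501 and MK508 and 1, 5 and 1 reads in MK503, MK507 and MK506. Its fitted log2 fold change of -4.97 thus rests on few reads after ischemia. DPT, a dermal matrix protein, had 4, 238 and 19 reads in sham and 0, 17 and 5 after ischemia. IDI2 had 31, 81 and 130 reads in sham and 7, 40 and 48 after ischemia. MK501 thus held most of the sham reads of both GATA6 and DPT. DLK1 and PVALB, which DESeq2 also called lower, had 283 and 518 reads in MK501 and at most 22 and 85 reads in any other library.

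The remaining lower genes were more abundant. FOXH1, a cofactor of SMAD proteins, was at 12.2, 70.4 and 41.7 CPM in sham and 5.82, 30.3 and 14.5 CPM after ischemia (-1.28 ± 0.23). PLAC9 (-1.27), EPB41L4A-AS1 (-1.03), NPHP4 (-1.04), SNORA68 (-1.22), TMEM261 (-0.98), NUDT14 (-1.01), FOCAD (-1.37), NDUFA3 (-1.12) and RESP18 (-1.95) complete the 15 genes. Reads were counted without strand, so EPB41L4A-AS1 cannot be told apart from any transcript on the other strand at its locus.

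Nuclear genes of the respiratory chain and ATP synthase, which make most of a neuron's ATP in the mitochondrion, had lower values after ischemia. Of 76 tested, 75 had a lower value, 64 were lower in all 3 pairs (all genes 13.9%) and 41 had an unadjusted p below 0.05 on the lower side (all genes 2.03%). The median log2 fold change was -0.70, and in pairs 1, 2 and 3 it was -0.53, -0.59 and -1.03. Only 1 of 76 had no overlap between the groups, on the lower side (all genes 1.45%). The summed level was 7606 (MK504), 19129 (MK501) and 15681 CPM (MK508) in sham and 5095 (MK503), 13215 (MK507) and 7976 CPM (MK506) after ischemia, so each ischemic animal was under its own partner while MK507 was well above MK504. MK501 had the highest value for 59 of the 76 genes and MK503 the lowest for 68.

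Each complex had a negative median, and complex II had no gene with an unadjusted p below 0.05 in edgeR. Complex I, which takes electrons from NADH, had 36 of 36 genes with a lower value, 31 lower in all 3 pairs, 22 with an unadjusted p below 0.05 and a median of -0.70. Complex IV, the oxidase that reduces oxygen, had 12 of 12 with a lower value, 5 at that p and a median of -0.78. Complex III had 8 of 8, 4 and -0.73, and ATP synthase 15 of 15, 9 and -0.73. Complex II, shared with the citric acid cycle, had 3 of 4 with a lower value, 0 at that p and a median of -0.47. UQCR11 of complex III was at 48.7, 306 and 197 CPM in sham and 28.3, 154 and 85.2 CPM after ischemia (-0.996 ± 0.237, unadjusted p = 0.00909 in edgeR). UQCRB (-0.95 ± 0.24) and COX5B (-0.97 ± 0.25) were alike, COX4I1 was at 319, 869 and 782 CPM in sham and 102, 686 and 343 CPM after ischemia (-1.06 ± 0.37), and the larger ATP synthase subunits ATP5A1 and ATP5B had -0.46 ± 0.28 and -0.42 ± 0.36. Without MK501, 54 of the 76 genes had an unadjusted p below 0.05 on the lower side, and without MK506 or without MK508 0 of 76 did, with medians of -0.79, -0.56 and -0.56. Without the pair block 0 of 76 did, with a median of -0.74.

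Ribosomal and proteasome genes had lower values too, to a smaller degree. Of 77 cytosolic ribosome genes, 77 had a lower value, 50 were lower in all 3 pairs (all genes 13.9%) and 9 had an unadjusted p below 0.05 (all genes 2.03%), at a median log2 fold change of -0.58. Without MK501 3 of 77 had such a p, without MK507 2, without MK506 or MK508 0, and with libraries scaled to equal totals 2. The pair medians were -0.08, -0.86 and -0.75, so pair 1 held little of it, and 75 of the 77 genes were highest in MK501. RPS28 was at 85.4, 770 and 424 CPM in sham and 54.1, 349 and 192 CPM after ischemia (-0.98 ± 0.27), RPL28 had -0.81 ± 0.26, and the abundant RPL3 and RPS20 had -0.52 ± 0.29 and -0.70 ± 0.31. Of 75 genes of the mitochondrial ribosome, 70 had a lower value, 46 were lower in all 3 pairs and 17 had an unadjusted p below 0.05, with a median of -0.39. Without MK503 or MK504 it was 8 of 75, without MK506 or MK508 0, and with equal totals 5. MRPL12 was at 15.1, 121 and 67.3 CPM in sham and 9.68, 69.7 and 35.3 CPM after ischemia (-0.79 ± 0.20). Of 34 proteasome genes, 30 had a lower value, 19 were lower in all 3 pairs and 2 had an unadjusted p below 0.05, with a median of -0.27. Many ribosomal protein genes have near-identical pseudogenes, so the share of reads given to each is uncertain.

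**Figure D2:**
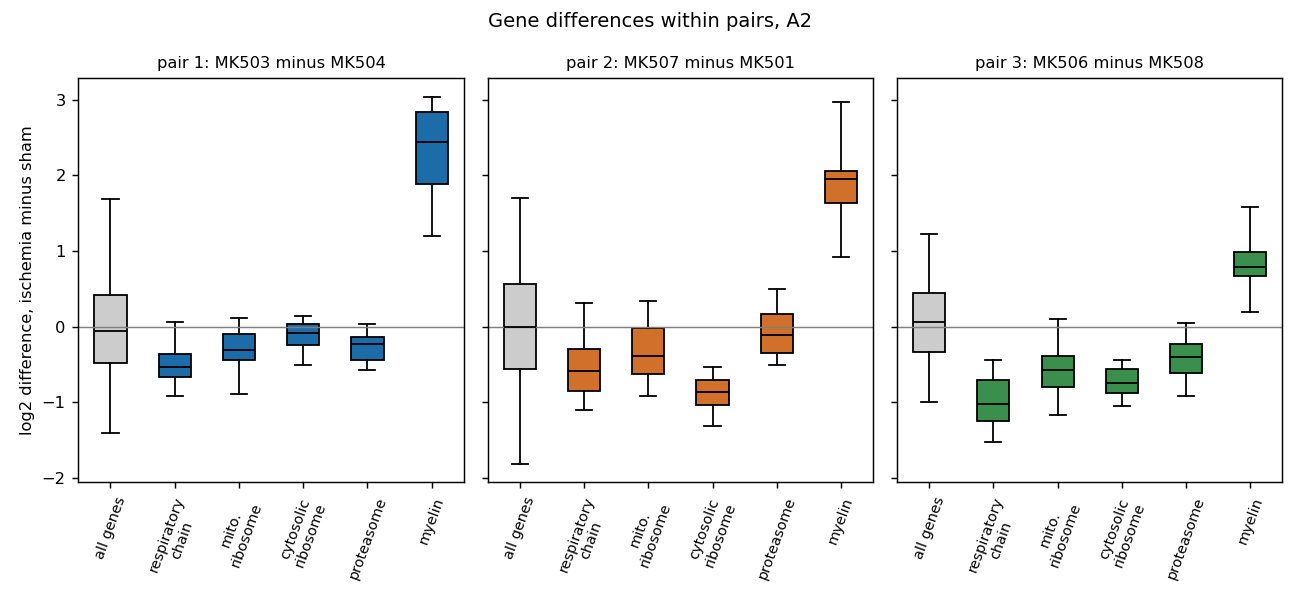
Log2 difference of ischemia minus sham for single genes within each of the 3 pairs in A2, for all genes tested (grey) and 5 gene lists, with boxes from the lower to the upper quartile, the median as a line and whiskers from the 5th to the 95th percentile. The myelin medians are 2.43, 1.95 and 0.78 and the respiratory chain medians -0.53, -0.59 and -1.03, while the medians of all genes are -0.06, -0.00 and 0.06.

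Neuronal genes went different ways in different pairs. The 18 genes of striatal projection neurons summed to 9693 (MK504), 6093 (MK501) and 11296 CPM (MK508) in sham and 3599 (MK503), 10224 (MK507) and 5135 CPM (MK506) after ischemia. The pair medians were -1.40, 0.96 and -1.13, so ischemia was lower in pairs 1 and 3 and higher in pair 2, and 1 of 18 had an unadjusted p below 0.05. PENK, the enkephalin precursor, was at 795, 1140 and 1902 CPM in sham and 290, 1221 and 622 CPM after ischemia (-1.002 ± 0.475). PPP1R1B, the dopamine-regulated phosphatase inhibitor, and ARPP21 had log2 fold changes of -0.49 ± 0.57 and -0.46 ± 0.66. The 19 pan-neuronal genes had pair medians of -1.38, 0.95 and -0.65, and SNAP25 of the synaptic release machinery had -0.71 ± 0.60. A fit without MK501 leaves out pair 2, the pair that went the other way. In that fit 17 of 18 striatal projection neuron genes and 15 of 19 pan-neuronal genes were lower at an unadjusted p below 0.05. Of all genes 9.2% were.

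Ependymal genes had the reverse order. The 20 genes of ependyma and motile cilia summed to 641 (MK504), 3154 (MK501) and 1476 CPM (MK508) in sham and 3069 (MK503), 771 (MK507) and 2487 CPM (MK506) after ischemia. Pair medians were 2.17, -1.82 and 0.78, none of the 20 was alike in all 3 pairs, and 0 had an unadjusted p below 0.05 in edgeR. DESeq2 called 0 of them. CFAP43, which motile cilia need, was at 126, 584 and 183 CPM in sham and 505, 104 and 294 CPM after ischemia (0.19 ± 1.03). Without MK501, and so without pair 2, 19 of 20 were higher at an unadjusted p below 0.05, where 9% of all genes were. The choroid plexus list had pair medians of 1.56, -6.80 and 0.83, and 12 of its 12 genes were highest in MK501. Among them AQP1, a water channel, was at 23.5, 413 and 54.7 CPM in sham and 199, 155 and 207 CPM after ischemia (1.32 ± 1.05).

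**Figure D3:**
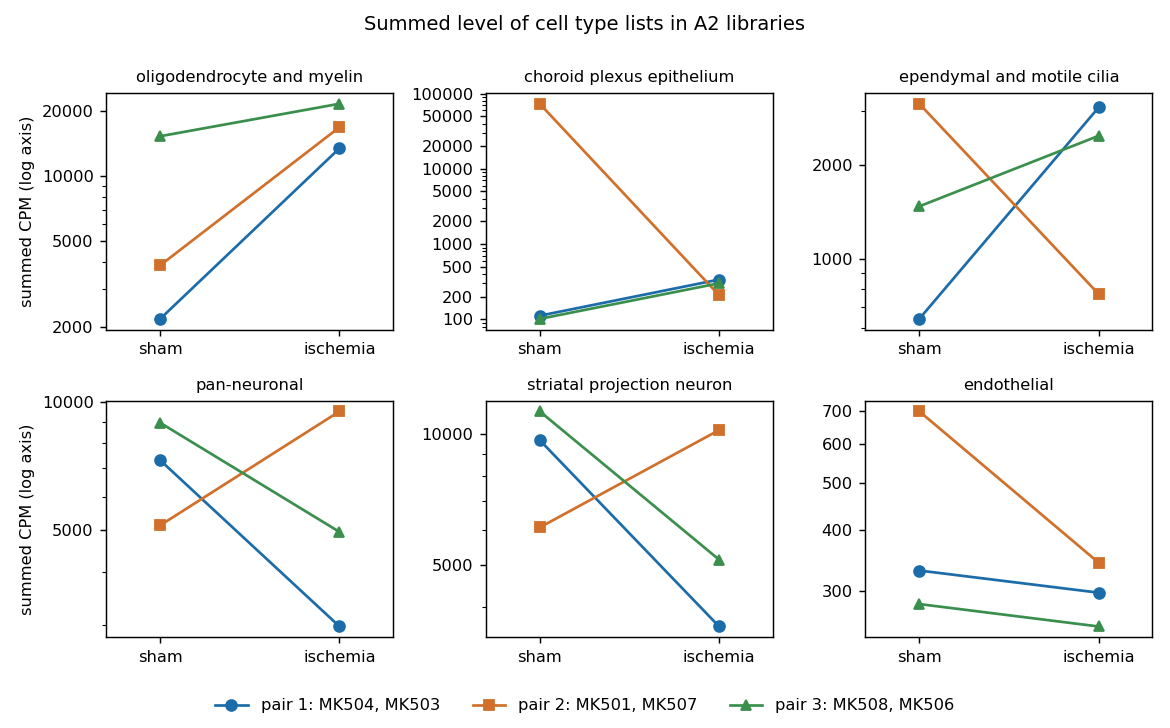
Summed CPM (log axis) of the genes of 6 cell type lists in the 6 A2 libraries, with the libraries of each pair joined. Myelin goes up in all 3 pairs (for example 2176 to 13468 CPM in pair 1), while the choroid plexus, ependymal and neuronal lists go the opposite way in pair 2, where the sham library MK501 has 73222 CPM of choroid plexus genes.

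Astrocyte genes had a median nearer 0. Of 19, 14 had a higher value and 4 were higher in all 3 pairs (all genes 13.7%), at a median log2 fold change of 0.21. An unadjusted p below 0.05 was reached by 1, GPR37L1 (0.62 ± 0.23), where 3.39% of all genes did on the higher side. GFAP, the filament protein that astrocytes raise when they react, was at 796, 3777 and 3457 CPM in sham and 6770, 4001 and 5721 CPM after ischemia. The 3 ischemic animals were the 3 highest, but the pair differences of 3.09, 0.08 and 0.73 were uneven, and the log2 fold change of 1.25 ± 0.74 had an unadjusted p of 0.154 in edgeR. The glutamate transporter SLC1A2 had -0.07 ± 0.46 and CLU, a secreted chaperone, 0.46 ± 0.33. The reactive astrocyte list had pair medians of 1.40, -0.87 and 0.68. NES and CHI3L1 were its 2 genes with an unadjusted p below 0.05, and CHI3L1 was at 5.57, 11.01 and 9.88 CPM in sham and 29.0, 19.5 and 15.9 CPM after ischemia, with no overlap.

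Of 24 genes of the extracellular matrix and glial scar, 15 had a higher and 9 a lower value. At an unadjusted p below 0.05 these were 3 and 1 (all genes 3.39% and 2.03%). Of the 24, 9 were higher in all 3 pairs and 1 was lower in all 3 (all genes 13.7% and 13.9%). The pair medians of 0.42, 0.37 and 0.42 were even. Tenascin C (TNC), a glycoprotein of stem cell niches and scars, was at 113, 47.8 and 64.8 CPM in sham and 243, 93.5 and 137 CPM after ischemia (1.05 ± 0.22, unadjusted p = 0.00524 in edgeR, adjusted p = 0.0737 in DESeq2). CHST3, which sulfates chondroitin chains, was at 15.8, 17.1 and 24.5 CPM in sham and 62.2, 30.2 and 56.4 CPM after ischemia, with no overlap (1.33 ± 0.30), and the proteoglycan VCAN had 1.25 ± 0.38, also with no overlap. BCAN and SPARC had 0.54 ± 0.25 and 0.58 ± 0.30 and did not reach an unadjusted p below 0.05. COL4A1, a collagen of the vessel basement membrane, was at 25.7, 29.7 and 14.3 CPM in sham and 16.0, 14.1 and 9.39 CPM after ischemia (-0.79 ± 0.25), the list's 1 gene on the lower side at that p.

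All 20 endothelial genes had a lower value, with a median of -0.52. Of the 20, 7 were lower in all 3 pairs (all genes 13.9%) and 3 had an unadjusted p below 0.05 (all genes 2.03% on the lower side). The pair medians were -0.26, -1.19 and 0.06, and 16 of the 20 were highest in MK501. ESAM, an adhesion molecule of endothelial junctions, was at 12.2, 49.7 and 38.0 CPM in sham and 7.63, 32.6 and 18.2 CPM after ischemia (-0.79 ± 0.23), and EGFL7 had -0.81 ± 0.25. Without MK501, and so without pair 2, the list median was -0.19. APLNR, the apelin receptor, was at 2.67, 14.3 and 10.1 CPM in sham and 87.1, 12.6 and 27.5 CPM after ischemia (1.89 ± 1.15, unadjusted p = 0.164 in edgeR). MK503 stood far above the rest, and pair 2 went slightly the other way. ANGPT1, a ligand that steadies vessels, had 1.31 ± 0.55.

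**Figure D4:**
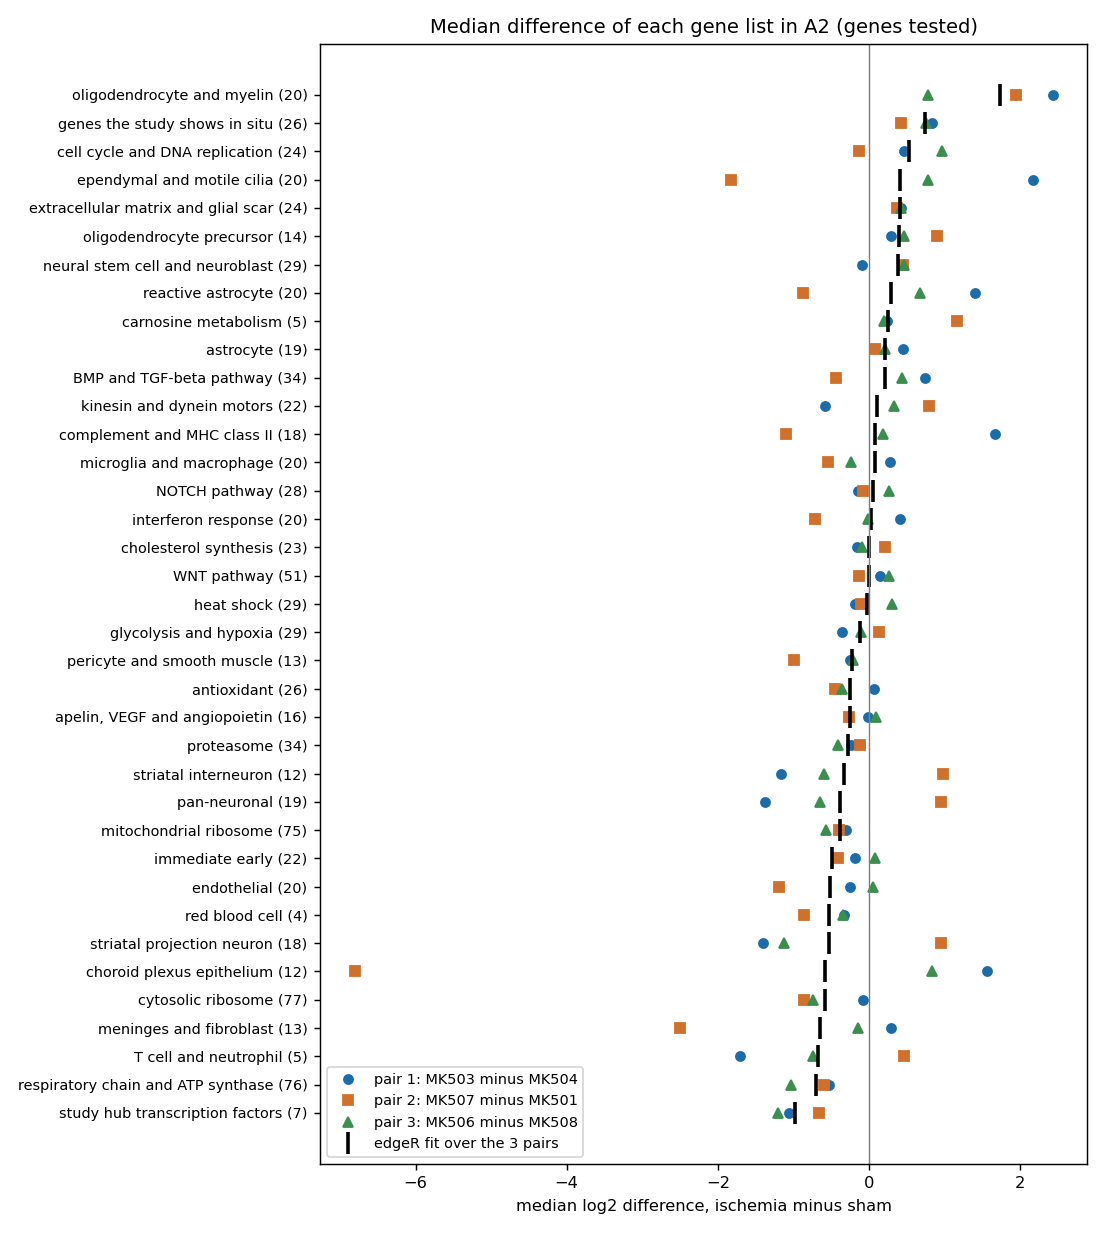
Median log2 difference (ischemia minus sham) of each of the 37 gene lists in A2, within each pair (coloured symbols) and from the edgeR fit over the pairs (black bar), with the number of genes tested in brackets. Myelin (1.73) is at the top, and the respiratory chain (-0.70) is near the bottom with all pairs on 1 side, while the pair 2 symbol of several lists lies opposite to the others.

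Among progenitor genes, 23 of 29 of the stem cell and neuroblast list had a higher value, with a median of 0.39. Of the 29, 4 were higher in all 3 pairs, a share near that of all genes (13.7%). An unadjusted p below 0.05 was reached by 2, on the higher side (all genes 3.39%). Without MK501 7 were higher and 6 lower at that p (all genes 9% and 9.2%). SP8, a factor of interneuron progenitors, was at 1.96, 3.22 and 2.40 CPM in sham and 7.40, 4.40 and 13.0 CPM after ischemia, with no overlap (1.61 ± 0.53). STMN1, a microtubule protein of young neurons, had 0.80 ± 0.27. Of 24 cell cycle genes, 23 had a higher value, 8 were higher in all 3 pairs and 1 had an unadjusted p below 0.05. The share of 1 in 24 is near that of all genes on the higher side (3.39%), and without MK501 it was 9 of 24, with the median going from 0.53 to 0.99 (all genes 9%). The 1 gene was the thymidylate synthase TYMS, at 1.96, 5.35 and 13.2 CPM in sham and 13.8, 13.7 and 24.1 CPM after ischemia.

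Genes that the study itself chose on these samples were also counted, so their direction is no independent evidence. All of the 26 listed genes for which it pictured in situ hybridization had a higher value, with a median of 0.74. Of the 26, 16 were higher in all 3 pairs (all genes 13.7%) and 9 had an unadjusted p below 0.05 (all genes 3.39% on the higher side). Without MK501 14 did (all genes 9%). Among the 9 of the main fit were BMPR1A, a BMP receptor, at 51.1, 10.2 and 17.0 CPM in sham and 103, 17.7 and 34.3 CPM after ischemia (0.94 ± 0.20), NEO1 (0.92 ± 0.21), RBPJ, the DNA-binding partner of NOTCH (0.91 ± 0.28), ATF7 (1.07 ± 0.32), KIF2A (0.75 ± 0.23) and CXXC5 (0.93 ± 0.35). Of its 7 hub transcription factors, JUN had the highest value against sham: it was at 13.5, 24.9 and 31.5 CPM in sham and 28.0, 54.9 and 85.0 CPM after ischemia (1.21 ± 0.21, unadjusted p = 0.00266 in edgeR, adjusted p = 0.0421 in DESeq2). Besides FOXH1, SOX17 (-1.52 ± 0.49) and FOXS1 (-1.47 ± 0.45) had an unadjusted p below 0.05 on the lower side, and DLX2 (1.16 ± 0.48), SOX4 (0.83 ± 0.55) and BATF (-0.98 ± 0.49) did not reach it.

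Signalling and stress lists were mixed, and their counts rest on few genes. Of 51 genes in the WNT list, 4 had an unadjusted p below 0.05 on the higher side and 1 on the lower side: the coreceptor LRP5 had 1.31 ± 0.33 and the antagonist SFRP1 1.27 ± 0.44, while DKK2, another WNT modulator, was at 2.82, 6.07 and 1.95 CPM in sham and 1.02, 1.05 and 0.763 CPM after ischemia (-1.79 ± 0.48). In the BMP and TGF-beta list 4 of 34 were past that p on the higher side, SMAD9 among them (1.22 ± 0.35), where 3.39% of all genes were. The pair medians of that list were 0.75, -0.44 and 0.44, and without MK501 it had 12 higher and 2 lower genes at that p, and without MK506 or MK508 none in edgeR. In the NOTCH list 2 of 28 were, RBPJ and the coactivator MAML2 (1.43 ± 0.30). Of 29 heat shock genes HSPA2 alone had an unadjusted p below 0.05, at 7.85, 12.4 and 28.7 CPM in sham and 49.5, 33.8 and 65.4 CPM after ischemia, with no overlap (1.75 ± 0.37). Of 22 immediate early genes, JUN passed it on the higher side, and EGR1 (-0.76 ± 0.23) and NR4A1 (-0.94 ± 0.33) on the lower side. The 12 striatal interneuron genes tested had pair medians of -1.16, 0.985 and -0.598. Of them, 2 had an unadjusted p below 0.05 on the lower side (all genes 2.03%), and 1 was lower in all 3 pairs (all genes 13.9%). That 1 was the peptide NPY, at 44.5, 102 and 107 CPM in sham and 13.4, 85.7 and 49.3 CPM after ischemia (-1.03 ± 0.35). No microglia gene of 20 had an unadjusted p below 0.05 in edgeR, DESeq2 called 0 of them, and the list median was 0.08. Without MK501 the counts of higher and lower genes at that p were 9 and 6 in the WNT list, 4 and 4 in the NOTCH list, 5 and 0 in the heat shock list and 4 and 6 in the immediate early list, where 9% and 9.2% of all genes were.

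The A2 difference was then compared with that in the adjacent fragments A1 and A3 of the same animals. In a model with the animal as a block over all 18 libraries, 0 of 16351 genes differed in their response between A2 and the mean of A1 and A3 at an adjusted p under 0.05 (smallest adjusted p 0.9998), with 85 higher (0.52%) and 116 lower (0.709%) at an unadjusted p. DESeq2 called 0, with 112 and 164 at an unadjusted p. Genes with the smallest p were mostly scarce, among them ZNF815P, FMR1-AS1, ANP32C and KCNK7 on the higher side, all under 10 CPM in every A2 library, and PMEL, SNORD60, TYRO3P, ACTG2 and MLIP on the lower side. No gene can therefore be called particular to A2.

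The myelin list had medians of 2.54 in A1, 1.73 in A2 and -0.90 in A3. Against A1 alone, the A2 difference had a median of -0.83 over the 20 genes, and 2 had an unadjusted p below 0.05 on the lower side (all genes 1.1%) and 0 on the higher side (all genes 0.503%). Against A3 alone the median was 2.63 and 20 of 20 reached it on the higher side (all genes 4.15%), with a smallest adjusted p of 0.511. Within pairs the A3 medians were -0.48, 0.55 and -2.83. MBP in A3 was at 757 (MK504), 1279 (MK501) and 28520 CPM (MK508) in sham and 450 (MK503), 2042 (MK507) and 2228 CPM (MK506) after ischemia, on the scale of the 18 libraries. The sham library of MK508 thus had the highest level of the 6 in A3, whereas in A1 the same animal had 3586 CPM and its partner MK506 25040 CPM. UGT8 in A3 was likewise highest in MK508, at 99.6 CPM against 7.58 to 35.9 CPM in the other 5 libraries.

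**Figure D5:**
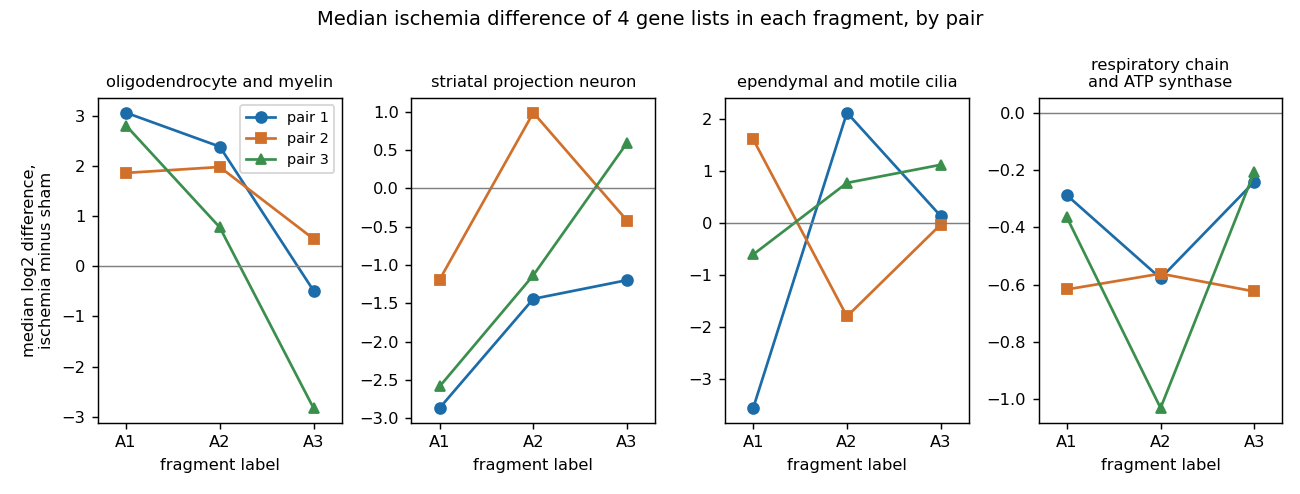
Median log2 difference (ischemia minus sham) of 4 gene lists in fragments A1, A2 and A3, within each pair of animals. Myelin in A2 (2.39, 1.98 and 0.78 on the scale of the 18 libraries) lies on the same side as A1 in all 3 pairs, A3 ranges from -2.83 to 0.55, and the respiratory chain is under 0 in all 9 points.

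The respiratory chain list had medians of -0.41 in A1, -0.70 in A2 and -0.34 in A3, the same direction in each. Against A1 alone the A2 difference had a median of -0.31 and 1 of 76 genes had an unadjusted p below 0.05 on the lower side. Against A3 alone the median was -0.34 and 0 of 76 did (smallest adjusted p 0.837 in edgeR, with 1.83% of all genes at an unadjusted p on the lower side). Striatal projection neuron genes had medians of -2.22 in A1, -0.53 in A2 and -0.42 in A3, and 0 of 18 differed between A2 and A1 at an unadjusted p below 0.05, by a median of 1.60. The part of tissue composition in any of these differences was not tested.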

How the data were processed

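RNA was sequenced from SVZa fragments of 6 monkeys. Per the labels, the authors used CASAVA (1.8.2), FastQC (0.10.0), TopHat2 (2.0.8) with the Macaca mulatta genome and RhesusBase annotation, and bedtools (2.16.2). The deposited values are raw counts per human RefSeq transcript (29686 rows, 19747 symbols), without normalization or strand. No column belonged to other samples (0). The transcript with the highest mean CPM over the 6 A2 libraries stood for each gene.

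Counts were analysed in R (4.3.3) with edgeR (4.0.16: filterByExpr, TMM, robust quasi-likelihood F test, Benjamini-Hochberg adjustment, threshold 0.05, pair and condition as terms). CPM on the log scale had a prior count of 2. DESeq2 (1.42.0) was an alternative. SE is the fold change over the root of F. The fit was checked on simulated data. p-values measure the spread between 3 pairs of animals, and at these depths counting error matters only for genes near 0. The labels do not say what the animals of a pair share. Pairs were read from the study's numbered animals by matching its values to the columns. In pair 1 both animals had MALAT1 at 1.09% to 1.27% of counts in every fragment, against at most 0.235% in the other animals. Same-pair correlations of deviations from the group means were 0.719, 0.34 and 0.504 over 15662 genes. Different-pair values ran from -0.68 to 0.556, and MK501 correlated more with MK506 (0.524) and MK508 with MK507 (0.556) than with their own partners.

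The members and lists were chosen with earlier results of these data known. Named genes were the 15 higher and 15 lower with the smallest p, alike in 3 pairs and at 1 CPM or more, up to 6 called and the 3 most abundant members of each list, and 5 per direction from the contrast with A1 and A3. The rule takes 149 genes, not all named here, and further members were picked as examples once their values were known. Results were recomputed with another normalization, filter, transcript choice and no pair block, with POLE2 and MALAT1 left out, with each animal left out and, chosen after seeing the data, each animal left out without the block. Transcript length was not corrected for.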

Additional observations from a re-analysis of the deposited data

Results flagged for a closer look

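DKK2, a secreted WNT modulator, differed in direction between A2 and A3 of the same animals, while A1 had the same direction as A2 (log2 fold change -1.54 in A1 and -1.79 in A2). In A2 the log2 difference of ischemia minus sham was -1.44, -2.42 and -1.27 in pairs 1, 2 and 3, and in A3 it was 1.74, 0.14 and 0.74, so every pair went down in A2 and up in A3. The medians differed by -2.18. In edgeR the difference between A2 and A3 did not pass over all genes (adjusted p = 0.567). Groups of 3 libraries were too small to test single libraries as outliers.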

How the results depend on the processing

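In edgeR 0 genes were called in A2 under every alternative, with or without the replicate block and without each animal (smallest adjusted p 0.12 to 1), and only DESeq2 called any (83 higher, 9 lower). At an unadjusted p below 0.05, 561 genes were higher and 335 lower, against 545 and 354 with the size factors of DESeq2, 742 and 189 with libraries scaled to equal totals, and 119 and 55 with no replicate block. Without 1 animal these counts ranged from 183 to 1579 and from 29 to 1572 with the pairs, and from 24 to 558 and from 10 to 435 without the block. Equal totals thus moved the split toward the higher side. The myelin median stayed between 1.01 and 2.37 and the respiratory chain median between -1.20 and -0.41 over all alternatives. The contrast of A2 with A1 and A3 also called 0 under each alternative (at an unadjusted p 678 higher and 299 lower against A3 alone, and 83 and 182 against A1 alone).

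Of the named genes, TTR (-0.06) was 0.0303 with equal totals and 0.0789 in DESeq2, and SLC1A2 (-0.07) was 0.0192 with equal totals. Leaving out 1 animal, with the pairs and without, turned the direction of 11 genes: TTR ranged from -11.7 to 1.68, SLC1A2 from -1.20 to 0.91, AQP1 from -0.35 to 2.49, ARPP21 from -1.26 to 0.14, PPP1R1B from -1.19 to 0.38, CFAP43 from -0.91 to 1.34, CYP7B1 from -0.35 to 4.40, BMPR1A from -0.00816 to 1.88, KIF2A from -0.0289 to 1.57, PDGFRA from -0.27 to 1.09 and EGFL7 from -1.59 to 0.15. In the contrast of fragments MLIP was 0.0942 against A3 alone, and against A1 alone MBP was -0.73, UGT8 -0.21, ASPA -0.51 and MOBP -0.64. The cause was not tested. With 3 pairs the spread between animals limits every comparison, and depth limits only genes with few reads.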

Other observations

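Levels of the myelin list varied among the 6 animals by fragment as well as by group. MBP in A1 was at 1270 (MK504), 2241 (MK501) and 3586 CPM (MK508) in sham and at 10840 (MK503), 8313 (MK507) and 25040 CPM (MK506) after ischemia on the scale of the 18 libraries. The groups did not overlap there, whereas in A2 they did.

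C4A and C4B, complement genes with near-identical copies, had the same counts in all 6 A2 libraries, so their reads cannot be told apart: both were at 6.75, 6.07 and 21.9 CPM in sham and 90.9, 22.0 and 40.7 CPM after ischemia in the order of pairs 1, 2 and 3 (log2 fold change 2.13 ± 0.63, adjusted p = 0.043 in DESeq2). The lowest ischemic and the highest sham animal were 22.0 and 21.9 CPM. The list of complement and MHC class II genes as a whole was mixed: 10 of 18 had a higher and 8 a lower value, with a median of 0.08. Its pair medians were 1.67, -1.10 and 0.19. Of the 18, 2 had an unadjusted p below 0.05 in edgeR, on the higher side (all genes 3.39%). C4A and C4B each had such a p on the same counts, so they are 1 measurement and not 2. HSPA2 and CNDP1 had no overlap between the groups either.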
